A study of Mus musculus with 20 samples.

Results

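The 33 genes described here make cholesterol and fatty acids or control that synthesis, and they were chosen by their symbols among the 53714 genes of the deposited table. They are 18 enzymes of the mevalonate and sterol pathway, 5 regulators that sense sterols, the sterol carrier Stard4, 5 genes of fatty acid synthesis, and the sterol receptor gene Nr1h2 with 3 of its targets. Their RNA was measured in CD4+iNKT1 cells, the interferon-γ producing class of invariant natural killer T cells, sorted from female mice of 8 to 12 weeks. There were 20 libraries in 7 groups, namely thymus, blood, spleen, liver_H and liver_C of C57/BL6N mice (BL6), and liver_H and liver_C of BALB/c mice, with 3 libraries in each group but 2 in BALB/c liver_C. All mice were unmanipulated inbred animals without a transgene or a treatment. Livers were divided, and liver_H denotes tissue incubated with enzymes (collagenase D, DNase I) for 30 min in the warm, at 37 °C, whereas liver_C denotes tissue passed through a mesh in the cold. Spleen was also meshed in the cold. The methods give perfusion and a Percoll density gradient for livers and neither step for spleen or thymus. Comparisons of spleen or thymus with liver_C therefore differ in these steps as well as in the organ. Cells of each spleen and liver library were pooled from 4 to 6 mice, and the pool size of blood and thymus is not given in the sources used here. Cells bound a CD1d tetramer and were gated as CXCR3+ in blood, spleen and liver and as CD122+ in thymus, so the thymus libraries differ from the others in the gate as well as in the organ. The labels do not say which liver_H and liver_C libraries share mice, and all libraries were treated as independent, so each p-value measures the spread between pools.

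Each deposited value is a read count scaled by a DESeq2 size factor, called normalized reads below. The libraries held 9336861 to 22879834 reads, with a median of 12457758, and defining genes of the sorted cells were present in each of them, with Cd3e at 6143 to 9781, Cd4 at 1803 to 3613 and Tbx21 at 1600.0 to 3463 normalized reads. Some libraries held genes of other cells. Hepatocyte genes summed to 1549.8 normalized reads in BALB/c liver_H N0972, and double-positive thymocyte genes to 10222 to 22573 in thymus. Results are also given below without libraries whose removal lost a call. Of the 33 members, 29 had at least 10 normalized reads in every library, and Fdps, Sqle, Tm7sf2 and Scd1 fell below that in some. All 33 were tested in 1 limma fit of the 20 libraries on log2(value + 1), and a member was called at a Benjamini-Hochberg adjusted p under 0.05 over the 14170 genes. In bulk RNA of this kind, fewer cells of a type and less RNA per cell cannot be told apart. Libraries are named by their library number, and these numbers fall into 3 ranges, over which the groups were unevenly spread. BL6 liver_H and both BALB/c groups lay in ranges 1 and 2. BL6 liver_C and spleen lay in ranges 2 and 3, and blood and thymus in ranges 1 and 3. In BL6, liver_H and liver_C thus shared range 2 alone, with N1225 and N1224, and preparation and range are largely confounded there.

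Animal cells match their sterol content to need through a pair of opposed switches. When membranes are short of cholesterol, the SCAP protein carries the SREBP transcription factors out of the endoplasmic reticulum, INSIG proteins no longer hold them back, and genes for sterol synthesis and uptake are transcribed. SREBP-2, encoded by Srebf2, acts mainly on cholesterol genes, and SREBP-1, encoded by Srebf1, mainly on fatty acid genes. When sterols are in excess, oxidized sterols bind the liver X receptors (LXR), of which LXRβ is encoded by Nr1h2, and these raise the exporters Abca1 and Abcg1 and the ubiquitin ligase Mylip, which lowers the uptake of lipoproteins. In T cells, sterol synthesis is known to accompany growth and division.

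Sequence near the gene starts shows which members carry letters that these factors are known to bind, and 26 of the 33 members matched a promoter in the RefSeq table of GRCm38.p6. Of the 250 bases before the start, 34 windows of members were read among 32851 windows in all. A CCAAT box, the site of the cofactor NF-Y that works beside SREBP, was present on either strand in 21 of the 34 windows and in 20 of the 26 members, against 33.8% of all windows. The sterol element in its longer form TCACNCCAC was present in Hmgcs1 alone, and its share of all windows was 1.05%. The shorter form TCACNCCA, chosen after the windows were read, was present in Hmgcs1, Msmo1 and Srebf2, against 3.67% of all windows. The consensus pair of LXR half-sites, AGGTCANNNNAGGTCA, was in none of the members' windows and in 0.0152% of all windows. The window of Abca1 instead held a run of the form GACCGNNAGTAACC, and these letters, taken from that window after it was read, were present in 3 of the 32851 windows (0.00913%), which were those of Abca1, Fasn and Srebf1. A match describes letters and not a bound site. The windows shown are those of Hmgcs1 and Srebf2, which hold the shorter sterol element, that of Cyp51, and the 3 with the Abca1 letters. Cyp51 was the enzyme called in most comparisons, and of the letters searched its window holds a CCAAT box alone. Other spellings of a sterol element were not searched, so the search does not show that Cyp51 lacks one. Capitals mark TCACNCCA, CCAAT and GACCGNNAGTAACC on either strand, and each window is given on the strand of its gene, Hmgcs1 at chr13:119690101-119690350 (+), Srebf2 at chr15:82147019-82147268 (+), Cyp51 at chr5:4104698-4104947 (-), Abca1 at chr4:53159896-53160145 (-), Fasn at chr11:120824548-120824797 (-) and Srebf1 at chr11:60210472-60210721 (-).
Hmgcs1: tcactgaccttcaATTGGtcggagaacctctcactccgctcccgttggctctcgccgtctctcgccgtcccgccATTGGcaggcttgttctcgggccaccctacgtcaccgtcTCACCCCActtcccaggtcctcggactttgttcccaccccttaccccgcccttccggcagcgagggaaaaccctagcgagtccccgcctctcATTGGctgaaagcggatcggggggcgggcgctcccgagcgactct
Srebf2: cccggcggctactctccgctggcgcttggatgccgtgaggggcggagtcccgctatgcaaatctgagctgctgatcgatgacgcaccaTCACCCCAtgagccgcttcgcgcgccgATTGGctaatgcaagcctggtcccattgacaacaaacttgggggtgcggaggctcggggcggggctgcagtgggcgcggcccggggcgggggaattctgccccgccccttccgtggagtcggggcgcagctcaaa
Cyp51: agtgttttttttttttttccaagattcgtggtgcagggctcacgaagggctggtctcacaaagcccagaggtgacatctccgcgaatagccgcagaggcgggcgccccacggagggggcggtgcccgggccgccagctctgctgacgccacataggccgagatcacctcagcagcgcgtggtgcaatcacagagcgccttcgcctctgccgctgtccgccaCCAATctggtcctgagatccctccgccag
Abca1: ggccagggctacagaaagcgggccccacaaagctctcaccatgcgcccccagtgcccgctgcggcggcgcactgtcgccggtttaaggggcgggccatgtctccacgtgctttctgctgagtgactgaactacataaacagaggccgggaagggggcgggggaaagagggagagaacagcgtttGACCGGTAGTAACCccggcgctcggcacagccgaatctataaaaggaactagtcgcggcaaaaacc
Fasn: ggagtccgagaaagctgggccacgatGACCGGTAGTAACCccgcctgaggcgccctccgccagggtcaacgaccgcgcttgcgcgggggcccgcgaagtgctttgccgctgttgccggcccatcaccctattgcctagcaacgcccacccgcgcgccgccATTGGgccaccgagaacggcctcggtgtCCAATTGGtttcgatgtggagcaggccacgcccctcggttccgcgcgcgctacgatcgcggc
Srebf1: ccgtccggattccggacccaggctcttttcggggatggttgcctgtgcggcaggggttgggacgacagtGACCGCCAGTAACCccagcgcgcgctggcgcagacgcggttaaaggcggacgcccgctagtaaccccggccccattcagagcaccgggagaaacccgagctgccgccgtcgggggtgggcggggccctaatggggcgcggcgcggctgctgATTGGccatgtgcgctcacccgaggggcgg

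Over the 7 groups, 16 of the 33 members differed by the F test of limma, beside 24.7% of all genes tested. By role these were 7 of 18 sterol enzymes (Mvk, Idi1, Sqle, Lss, Cyp51, Nsdhl and Hsd17b7), 2 of 5 regulators (Srebf2 and Insig1), Stard4, 2 of 5 fatty acid genes (Fasn and Scd2) and each of the 4 LXR genes (Nr1h2, Abca1, Abcg1 and Mylip). The smallest adjusted p were those of Abca1 (1.49e-09), Scd2 (9.46e-09), Abcg1 (1.64e-06), Srebf2 (0.000418), Cyp51 (0.000711) and Mylip (0.000781). Summed over the 18 sterol enzymes, thymus held 2584 to 2924, blood 3492 to 3586, spleen 2542 to 2814 and liver_C 3318 to 3559.6 normalized reads in BL6. The thymus and spleen libraries all lay below those of blood and liver_C in this sum. Summed over the 4 LXR genes the order was another one, with 7059 to 8200.5 in thymus, 4017 to 4215 in blood, 4952 to 5538 in spleen and 4169.6 to 4769.7 in liver_C, so that thymus was highest and spleen lay between thymus and the other organs.

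**Figure D1:**
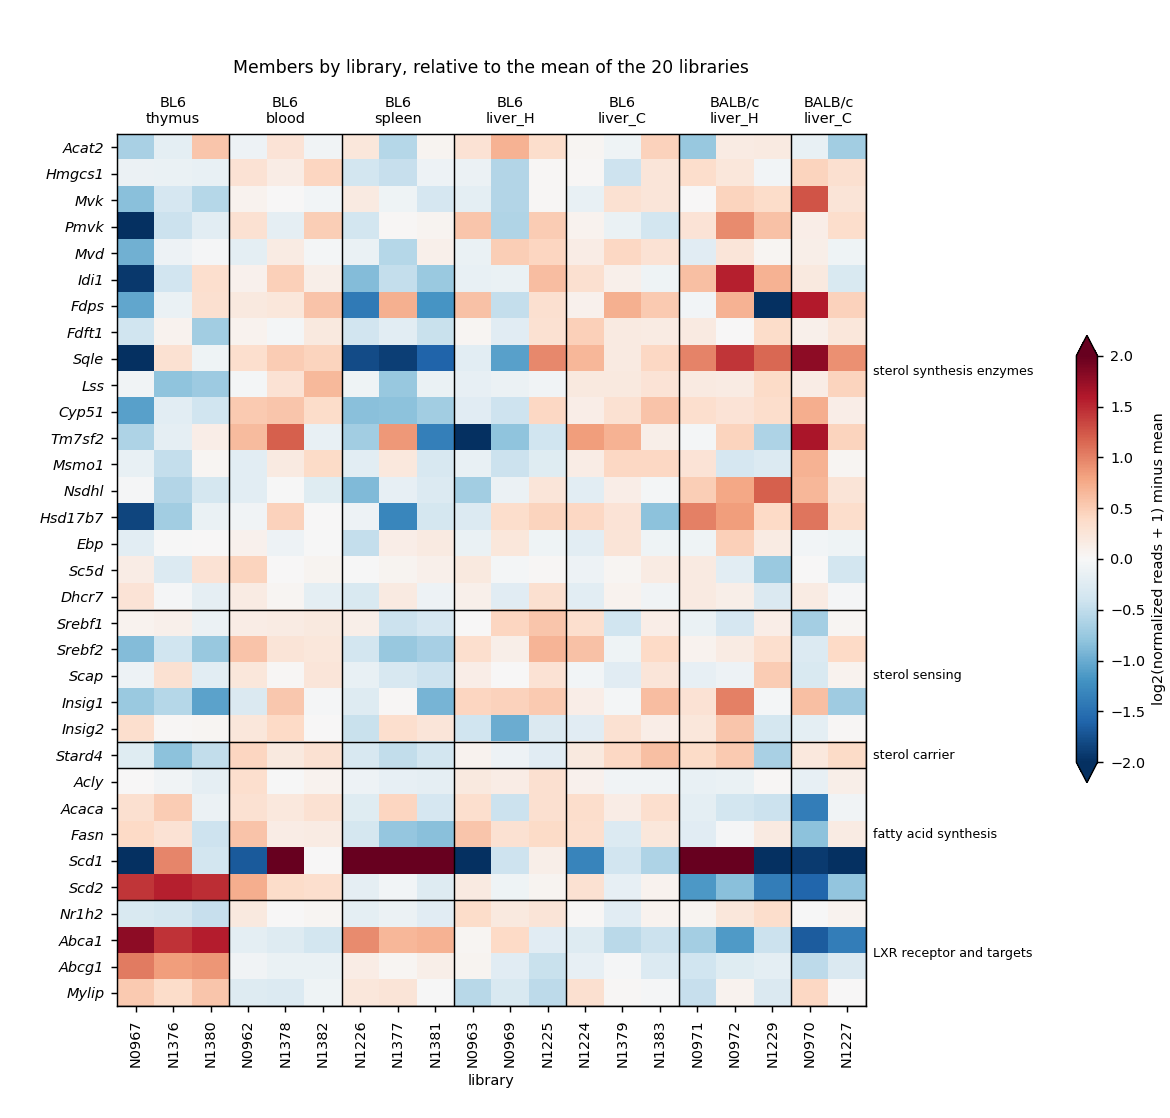
Each row is a member, each column a library, and the colour gives log2(normalized reads + 1) minus the mean of that gene over the 20 libraries, with colours saturated beyond 2 on either side. The red block of Scd2, Abca1 and Abcg1 in thymus, the red Abca1 cells in spleen, and the blue Sqle, Cyp51, Srebf2 and Fasn cells in spleen stand out, and the 5 BALB/c libraries are blue in Scd2 and Abca1.

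Levels between members can be compared only per length of the gene, and the table gives that length in bases. Per kilobase and averaged over the 20 libraries, the highest were Mylip (588), the citrate lyase gene Acly (433), Abcg1 (322), Nr1h2 (231) and Srebf2 (198 normalized reads per kilobase). Among the sterol enzymes, the isomerase gene Ebp (147) and the desaturase gene Sc5d (112), which act late in the pathway, were highest. The reductase gene Tm7sf2 (4.66) and the farnesyl pyrophosphate synthase gene Fdps (5.43) were lowest. Both overlap another gene on the same strand, Tm7sf2 over 9356 bases with Vps51 and Fdps over 7512 bases with the gene model Gm43738. The counting could have split or left out shared reads, and the part of this in their low levels was not tested. Srebf1 lay at 149 normalized reads per kilobase. Of the stearoyl-CoA desaturases, Scd2 lay at 175 and Scd1 at 4.84 normalized reads per kilobase. Scd1 and Scd2 are paralogs, as are Acat2 and Acat3, and reads shared between near-identical copies could have been split by the counting.

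Between the BL6 organs, most calls fell on a small set of members. Thymus differed from liver_C in 8 members (8.4% of all genes tested were called) and from spleen in 4 (background 9.84%), blood differed from spleen in 4 (background 1.82%), and spleen differed from liver_C in 3 (background 1.23%). Blood differed from liver_C in none of the 33 by limma, where 2 members had an unadjusted p under 0.05, edgeR and DESeq2 also called none, and 0.0706% of all genes were called. The shares of members called in thymus against liver_C and in spleen and blood were above the background, and that in thymus against spleen was near it. The comparisons of thymus and spleen share the liver_C libraries, and those of thymus and blood share the spleen libraries. Of the 33 members, 26 were fitted below 0 in spleen against liver_C and 25 in thymus against liver_C, and 29 were fitted above 0 in blood against spleen. Over all 14170 genes these counts were 6871, 6875 and 6722. The comparisons of spleen with liver_C and of blood with spleen share the spleen libraries. Libraries without overlap were lower in spleen than in liver_C for 10 members (8.76% of all genes tested) and higher for 3 (9.87%). They were higher in blood than in spleen for 15 (11.4%) and lower for 4 (11.2%), and lower in thymus than in liver_C for 10 (12.8%) and higher for 4 (14.1%).

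**Figure D2:**
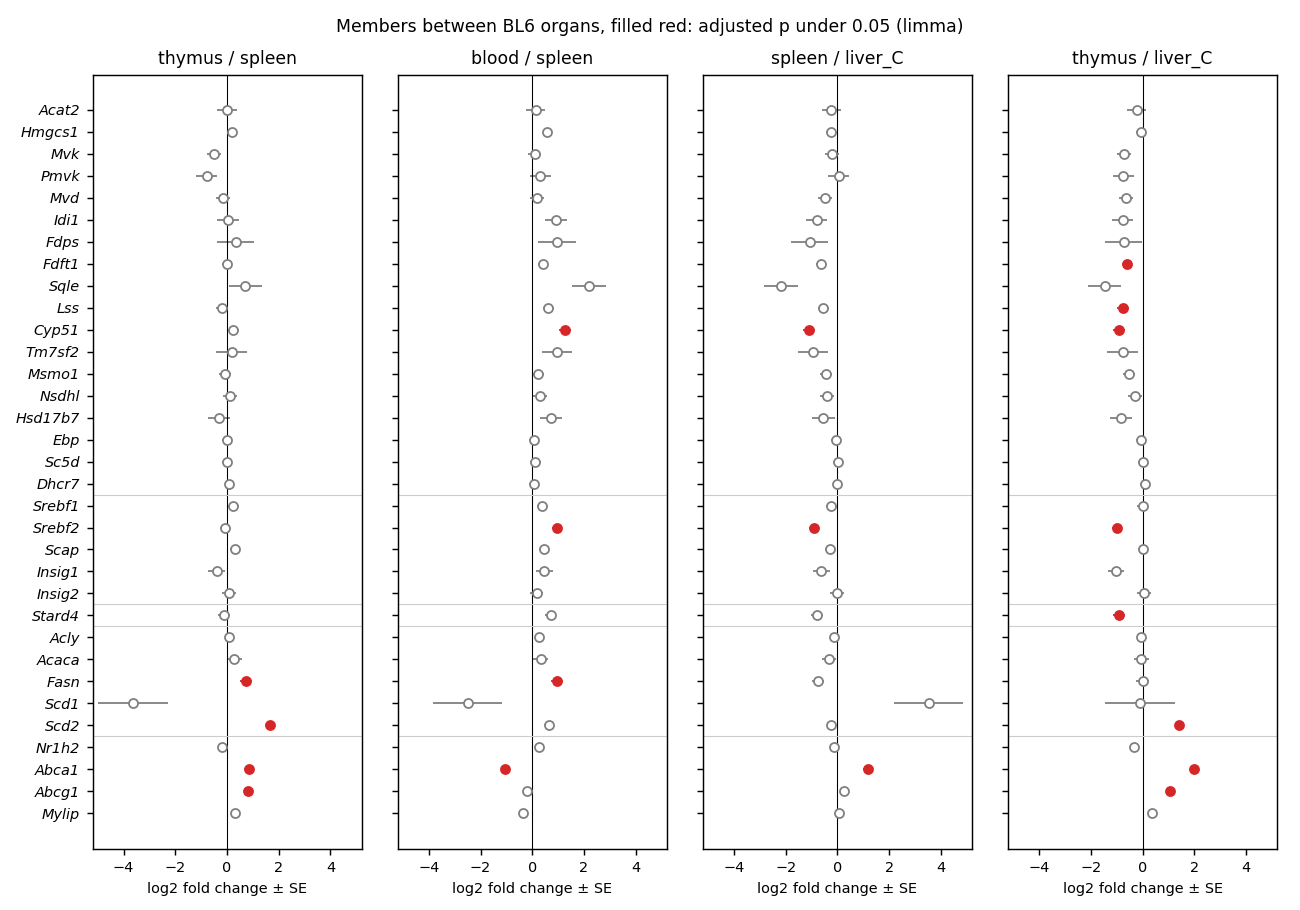
Log2 fold changes of the 33 members between BL6 organs on the log2(normalized reads + 1) scale, with their standard errors from the fit of all libraries, where filled red points were called at an adjusted p under 0.05 and open grey points were not. Srebf2 and Cyp51 lie left of 0 in spleen and in thymus against liver_C and right of 0 in blood against spleen, and Abca1 lies right of 0 in thymus and spleen and left of 0 in blood against spleen.

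Among the regulators, Srebf2 (ENSMUSG00000022463.8; GRCm38 chromosome 15, 82147181 to 82205379) was low in thymus and spleen. It had 736, 1024 and 796 normalized reads in thymus, 2007, 1606 and 1570.5 in blood, 1040.0, 796 and 853 in spleen and 2034, 1273 and 1785 in liver_C. The thymus and spleen libraries lay below every blood and liver_C library, and thymus and spleen overlapped with each other. Against liver_C, Srebf2 fell in thymus (log2 fold change -0.98 ± 0.20 SE, adjusted p = 0.0021) and in spleen (log2 fold change -0.90 ± 0.20 SE, adjusted p = 0.0207), and against spleen it rose in blood (log2 fold change 0.95 ± 0.20 SE, adjusted p = 0.0141). The gene model Gm49502 overlaps Srebf2 over 2110 bases on the same strand and averaged 30.2 normalized reads, against 1419 of Srebf2.

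The other regulators were not called between organs in the fit of all libraries. With the ranges of library numbers as a block, Srebf1 and Scap were called in blood against spleen and Insig1 in thymus against liver_C. Srebf1 had 863, 884 and 752 normalized reads in thymus, 911, 923 and 941 in blood, 887, 608 and 648 in spleen and 1030.0, 619 and 901 in liver_C, and the widely spread liver_C libraries overlapped with every other organ. Scap, the escort of the SREBP proteins, averaged 548 ± 106 in thymus, 609 ± 48.2 in blood, 444 ± 42.9 in spleen and 543 ± 92.1 in liver_C (SD, n = 3 each). Insig1, which holds the escort back and is itself an SREBP target, had 141, 158 and 112 normalized reads in thymus, against 259.7, 231 and 362 in liver_C. Its thymus libraries lay below all of those of liver_C, but the difference missed the threshold (log2 fold change -1.03 ± 0.32 SE, adjusted p = 0.0505). Insig1 was called there in 13 of 29 alternatives, among them the block, the fit of only these groups, edgeR and DESeq2. Insig2, the second retention gene, averaged 155 ± 19.6 in thymus, 165 ± 22.1 in blood, 149.8 ± 40.7 in spleen and 150.0 ± 27.1 in liver_C.

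Among the sterol enzymes, Cyp51, which removes a methyl group from lanosterol, was called in most comparisons of the enzymes (ENSMUSG00000001467.5; chromosome 5, 4081145 to 4104746). Cyp51 had 123, 227 and 198 normalized reads in thymus, 375, 383 and 336 in blood, 147, 148 and 161 in spleen and 288, 322 and 388 in liver_C. Each spleen and thymus library lay below each blood and liver_C library, and spleen was the most uniform of the groups. Cyp51 fell in spleen against liver_C (log2 fold change -1.11 ± 0.23 SE, adjusted p = 0.0131) and in thymus against liver_C (log2 fold change -0.90 ± 0.23 SE, adjusted p = 0.0148), and rose in blood against spleen (log2 fold change 1.26 ± 0.23 SE, adjusted p = 0.00641). The gene ends overlap, in that 166 bases of Cyp51 lie opposite Akap9, which averaged 999.6 normalized reads, and whether the authors' counting used strand is not given in the sources used here.

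Lss, which closes the sterol rings, had 201, 121 and 127 normalized reads in thymus, 204, 258 and 331 in blood, 199, 125 and 193 in spleen and 241, 241 and 256 in liver_C. The liver_C libraries lay within a narrow band above all thymus and spleen libraries, and Lss fell in thymus against liver_C (log2 fold change -0.75 ± 0.22 SE, adjusted p = 0.0377). Fdft1, the squalene synthase gene, had 219, 304 and 178 in thymus, 303, 279.7 and 332 in blood, 221, 248 and 211 in spleen and 402, 327 and 325 in liver_C. Every thymus and spleen library lay below every liver_C library, and Fdft1 fell in thymus against liver_C with the highest adjusted p of the 8 called members (log2 fold change -0.61 ± 0.19 SE, adjusted p = 0.0467). Fdft1 overlaps Ctsb on the opposite strand over 774 bases, and Ctsb averaged 2532 normalized reads. The call of Fdft1 held in 12 of 29 alternatives, and without thymus N1380, thymus N0967 or liver_C N1224 its adjusted p was 0.266, 0.117 and 0.215, and with the ranges of library numbers as a block it was 0.0733. The call of Lss was lost without any 1 of the liver_C libraries N1224, N1379 and N1383 or of the thymus libraries N1376 and N1380, with an adjusted p of 0.0806 to 0.167, and also with the block (0.0532), with only these groups in the fit (0.0536) and with no filter on low values (0.0654).

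Sqle, the squalene epoxidase gene and a step that limits the flow through the pathway, had the largest fitted difference of the 18 enzymes in spleen against liver_C and in blood against spleen. Sqle had 5.05, 76.8 and 58.7 normalized reads in thymus, 78.7, 88.3 and 85.0 in blood, 17.2, 16 and 19.7 in spleen and 98.5, 70.3 and 82.6 in liver_C. The spleen libraries were alike and lay far below all blood and liver_C libraries, and thymus was split, with N0967 the lowest of all libraries. In the fit of all libraries neither spleen against liver_C (log2 fold change -2.18 ± 0.64 SE, adjusted p = 0.13) nor blood against spleen (log2 fold change 2.19 ± 0.64 SE, adjusted p = 0.0888) was called. With only the groups compared in the fit, with the ranges of library numbers as a block, and by DESeq2, Sqle was called in both, as it was without thymus N0967.

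The 14 other enzymes were not called between the BL6 organs in the fit of all libraries, and of these Mvk was called in thymus against liver_C with quantile normalization. Over the 18 enzymes, the median log2 fold change was -0.46 in spleen against liver_C, where 15 were fitted below 0, and -0.68 in thymus against liver_C, where 16 were, beside 0.01 over all genes tested in each. In blood against spleen all 18 were fitted above 0, with a median of 0.36 beside -0.02 over all genes. In blood against liver_C the median of the enzymes was 0.01, and in thymus against spleen 0.01. Hmgcs1, which makes HMG-CoA and carries the longer sterol element, had 339, 307 and 374 normalized reads in blood, against 216, 202 and 259.8 in spleen, without overlap and not called (log2 fold change 0.59 ± 0.19 SE, adjusted p = 0.131). Idi1, the isopentenyl isomerase gene, had 95.0, 125 and 97.2 in blood, against 48.4, 64.2 and 53.1 in spleen, again without overlap and not called (log2 fold change 0.92 ± 0.41 SE, adjusted p = 0.337). The F test over the 7 groups also called Mvk, Idi1, Nsdhl and Hsd17b7, whose highest group means were in BALB/c livers. Mvk, the mevalonate kinase gene, had 116, 158 and 150.1 normalized reads in BALB/c liver_H and 277 and 139 in BALB/c liver_C, against 64.4, 91.4 and 77.6 in thymus and 131, 109 and 91.5 in spleen. Hsd17b7, a reductase gene of the pathway, had 133, 118 and 86.8 in BALB/c liver_H, against 17.7, 40.23 and 59.8 in thymus. The thymus libraries lay below those BALB/c libraries in both genes, and the highest spleen library overlapped with BALB/c liver_H in Mvk. Of the enzymes of the early steps, Acat2, which joins acetyl-CoA units, averaged 45.8 ± 20.2 in thymus, 47.8 ± 7.36 in blood, 44.4 ± 12.1 in spleen and 51.5 ± 10.9 in liver_C (SD, n = 3 each). Pmvk, the phosphomevalonate kinase gene, averaged 42.5 ± 23.0 in thymus, 81.4 ± 19.1 in blood, 65.1 ± 10.3 in spleen and 63.1 ± 9.48 in liver_C. The decarboxylase gene Mvd averaged 76.0 ± 24.4 in thymus, 93.2 ± 11.7 in blood, 83.4 ± 19.3 in spleen and 116 ± 10.8 in liver_C. None of these 3 genes was called between the organs. Fdps averaged 16.8 ± 7.66 in thymus, 24.5 ± 3.86 in blood, 15.5 ± 14.4 in spleen and 26.8 ± 5.95 in liver_C, with an SD near its mean in spleen. Msmo1, which oxidizes the methyl groups of sterols, averaged 238 ± 42.7 in thymus, 296 ± 60.2 in blood, 253 ± 51.9 in spleen and 339 ± 34.2 in liver_C. The 18 enzymes differed in their range, and the ratio of the highest to the lowest of the 7 group means was lowest for Dhcr7 (1.11), Ebp (1.21) and Sc5d (1.31), 2.40 for Cyp51, and highest for Sqle (9.46), Tm7sf2 (4.62) and Idi1 (3.29).

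Among other sterol genes, Soat1, which esterifies cholesterol for storage, had 974, 977 and 957 in thymus, against 585, 744 and 674 in spleen, and rose there (log2 fold change 0.54 ± 0.15 SE, adjusted p = 0.0273).

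Stard4, a carrier of sterols between membranes and an SREBP target (chromosome 18, 33199355 to 33213862), had 388, 259.7 and 324 normalized reads in thymus, 619.8, 526 and 566 in blood, 366, 323 and 355 in spleen and 524, 610.1 and 694 in liver_C. Its order was that of Srebf2 and Cyp51, with thymus and spleen below blood and liver_C. Stard4 fell in thymus against liver_C (log2 fold change -0.92 ± 0.22 SE, adjusted p = 0.00974), and was not called in spleen against liver_C (log2 fold change -0.80 ± 0.22 SE, adjusted p = 0.0963) or in blood against spleen (log2 fold change 0.71 ± 0.22 SE, adjusted p = 0.116). With only the groups compared in the fit Stard4 was called in both, and with the block and by DESeq2 it was called in spleen against liver_C.

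Among the fatty acid genes, Fasn and Scd2 changed between organs. Fasn, the fatty acid synthase gene (ENSMUSG00000025153.9; chromosome 11, 120805846 to 120824547), had 1972, 1847 and 1129.8 normalized reads in thymus, 2229.6, 1668 and 1692 in blood, 1183, 876 and 840.3 in spleen and 1888, 1246 and 1760.2 in liver_C. Spleen was low, all blood libraries lay above it, and the lowest thymus library overlapped with the highest spleen library. Fasn rose in blood against spleen (log2 fold change 0.95 ± 0.23 SE, adjusted p = 0.0394) and in thymus against spleen (log2 fold change 0.75 ± 0.23 SE, adjusted p = 0.0479). The call in thymus held in 15 of 29 alternatives, and it was lost without thymus N0967 or N1376 or without spleen N1377 or N1381 (adjusted p 0.202, 0.186, 0.161 and 0.18). The call in blood was lost without any 1 of the blood libraries N0962, N1378 and N1382 (adjusted p 0.197, 0.0865 and 0.0842) or without spleen N1377 or N1381 (0.145 and 0.183). In spleen against liver_C Fasn was not called (log2 fold change -0.75 ± 0.23 SE, adjusted p = 0.174), except with the ranges of library numbers as a block.

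Scd2, a desaturase gene that makes monounsaturated fatty acids (ENSMUSG00000025203.5; chromosome 19, 44293676 to 44306864), was high in thymus. Scd2 had 2149.9, 2353 and 2228 normalized reads in thymus, 1325, 1026 and 1006 in blood, 707, 765 and 666 in spleen and 983, 709 and 840.1 in liver_C. Each thymus library lay above every other library of the series, and spleen and liver_C overlapped. Scd2 rose in thymus against spleen (log2 fold change 1.65 ± 0.18 SE, adjusted p = 2.59e-06) and against liver_C (log2 fold change 1.42 ± 0.18 SE, adjusted p = 2.01e-05), calls that each of the 29 alternatives kept. In blood against spleen the libraries did not overlap either, and the difference was not called (log2 fold change 0.64 ± 0.18 SE, adjusted p = 0.0764). It was called with the block, with only these groups in the fit and by DESeq2, and also without BALB/c liver_C N0970 or N1227.

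Its neighbour Scd1 had another pattern at a much lower level. Scd1 had 0, 17.4 and 6.29 normalized reads in thymus, 1.92, 50.2 and 8.41 in blood, 70.5, 62.9 and 55.1 in spleen and 2.75, 6.2 and 5.11 in liver_C. The 3 spleen libraries were alike and above all liver_C and thymus libraries, but neither spleen against liver_C (log2 fold change 3.53 ± 1.34 SE, adjusted p = 0.343) nor thymus against spleen (log2 fold change -3.63 ± 1.34 SE, adjusted p = 0.103) was called in the fit of all libraries. With only the groups compared in the fit, both were, and thymus against spleen also with a pseudocount of 10 and without BALB/c liver_H N1229. Acly, which makes acetyl-CoA from citrate, had 2864, 2255 and 2384 normalized reads in blood, against 2127, 2034 and 2002 in spleen, without overlap and not called (log2 fold change 0.28 ± 0.12 SE, adjusted p = 0.29). Acaca, the acetyl-CoA carboxylase gene, averaged 300.1 ± 64.2 in thymus, 303 ± 10.8 in blood, 249.7 ± 76.8 in spleen and 305 ± 22.7 in liver_C (SD, n = 3 each).

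Of 12 other fatty acid genes 11 were tested, since Me1 did not pass the filter, and 1 rose in thymus against spleen and 1 fell in thymus against liver_C. Acsl3, an acyl-CoA synthetase gene, had 115, 178 and 181 normalized reads in thymus, against 79.5, 60.5 and 82.7 in spleen, and rose (log2 fold change 1.07 ± 0.26 SE, adjusted p = 0.00996). Fads1, a desaturase gene for polyunsaturated fatty acids, had 49.3, 152 and 91.3 in thymus, against 233, 256 and 213 in liver_C, and fell (log2 fold change -1.39 ± 0.29 SE, adjusted p = 0.00318). Thus, the desaturase genes Scd2 and Fads1 differed in opposite directions between thymus and liver_C.

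**Figure D3:**
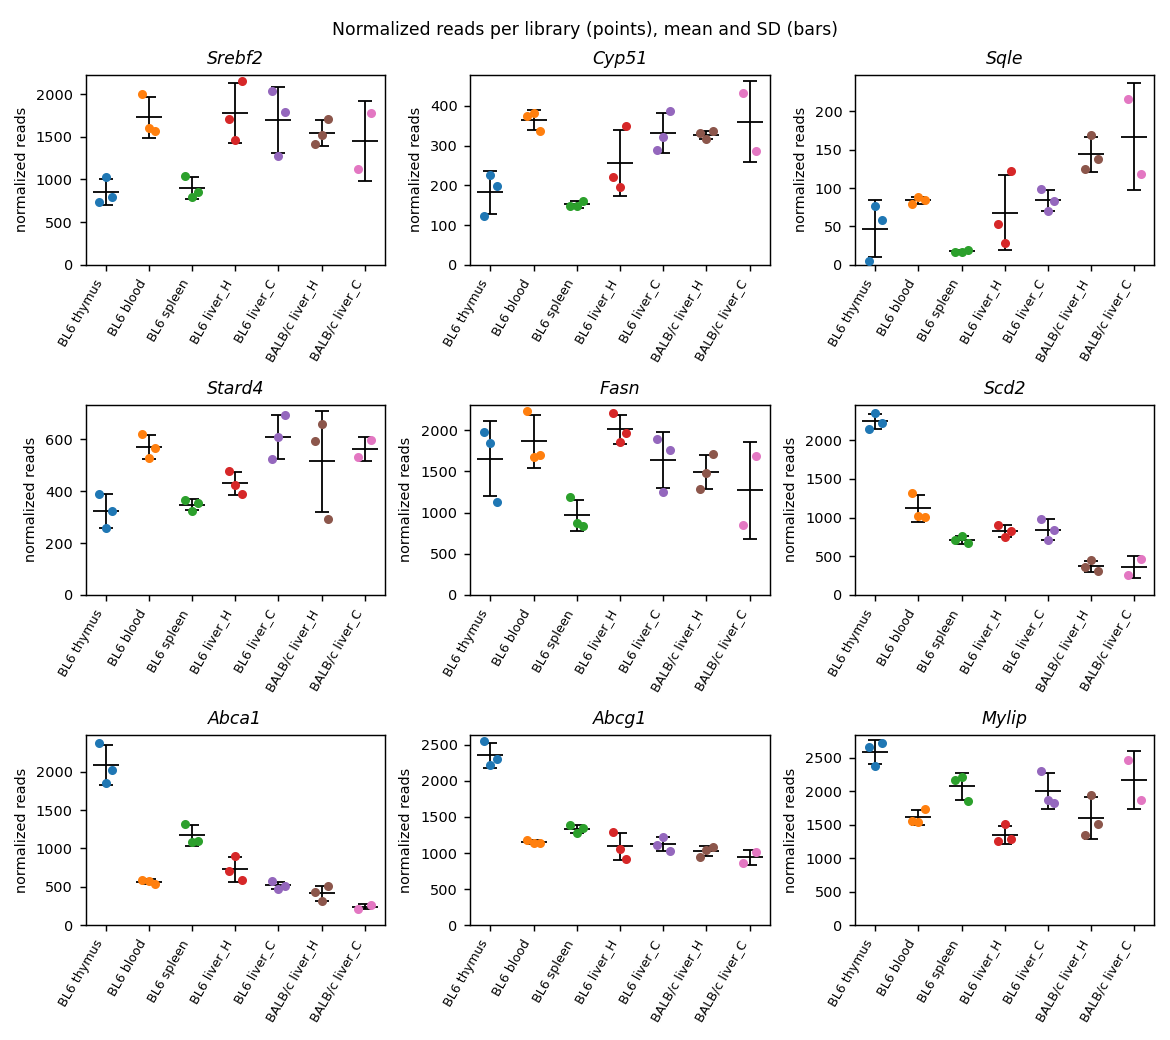
Normalized reads of 9 members in each library (points), with the mean and SD of each group (bars), for thymus, blood, spleen, liver_H and liver_C of BL6 and liver_H and liver_C of BALB/c. Spleen and thymus are low in Srebf2, Cyp51 and Stard4, spleen alone is uniformly low in Sqle, thymus is high in Scd2, Abca1 and Abcg1, and BALB/c is low in Scd2.

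Among the LXR genes, the exporters Abca1 and Abcg1 changed between organs, and their order differed from that of the sterol enzymes. Abca1, which exports cholesterol and phospholipid to apolipoproteins (ENSMUSG00000015243.4; chromosome 4, 53030787 to 53159895), had the smallest adjusted p of the members over the 7 groups. It had 2372, 1855 and 2027 normalized reads in thymus, 595, 574 and 531 in blood, 1324, 1086 and 1103 in spleen and 571, 472 and 509 in liver_C. Thymus lay above spleen, and spleen above blood and liver_C, without overlap at either step, and blood and liver_C overlapped. Abca1 rose in thymus against liver_C (log2 fold change 2.01 ± 0.18 SE, adjusted p = 1.03e-07), in thymus against spleen (log2 fold change 0.83 ± 0.18 SE, adjusted p = 0.00312) and in spleen against liver_C (log2 fold change 1.18 ± 0.18 SE, adjusted p = 0.00105), and fell in blood against spleen (log2 fold change -1.04 ± 0.18 SE, adjusted p = 0.00335). Each of these 4 calls was kept in the 29 alternatives. Within 1 range of library numbers, with 2 libraries on each side, the difference of thymus and liver_C was 1.98.

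Abcg1, the exporter to mature lipoproteins (chromosome 17, 31057698 to 31115777), had 2552, 2223 and 2299.5 normalized reads in thymus, 1185, 1140.3 and 1139 in blood, 1384, 1278 and 1348 in spleen and 1114, 1223 and 1034 in liver_C. Thymus stood apart from the rest, and spleen lay above blood and liver_C by less. Abcg1 rose in thymus against spleen (log2 fold change 0.82 ± 0.12 SE, adjusted p = 0.000141) and against liver_C (log2 fold change 1.07 ± 0.12 SE, adjusted p = 5.63e-06), both kept in the 29 alternatives, and was not called in spleen against liver_C (log2 fold change 0.25 ± 0.12 SE, adjusted p = 0.559). Mylip had 2656, 2379.8 and 2716 in thymus, 1554, 1536 and 1741 in blood, 2163, 2216 and 1847 in spleen and 2306, 1875 and 1818 in liver_C. The thymus libraries were the highest of these organs, and no organ difference of Mylip was called (thymus against liver_C, log2 fold change 0.38 ± 0.15 SE, adjusted p = 0.134), except in thymus against liver_C with quantile normalization. Nr1h2, the receptor gene, had 620.2, 602 and 557 in thymus, against 779, 656 and 808 in liver_C, and was lower in thymus in each library without being called (log2 fold change -0.33 ± 0.12 SE, adjusted p = 0.0995).

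Of 7 other genes of the LXR pathway, only Rnf145 was called between organs. Rnf145, an LXR-induced ubiquitin ligase gene of sterol control, had 1426, 1377.8 and 1143 normalized reads in thymus, 809, 949.9 and 790.4 in blood, 890.0, 735 and 833 in spleen and 791, 715 and 645 in liver_C. It rose in thymus against spleen (log2 fold change 0.68 ± 0.14 SE, adjusted p = 0.00188) and against liver_C (log2 fold change 0.87 ± 0.14 SE, adjusted p = 0.000171). Lpcat3, a phospholipid-remodelling LXR target, had 301, 189 and 223 in thymus, against 168, 185 and 183 in spleen, and was not called (log2 fold change 0.38 ± 0.20 SE, adjusted p = 0.288).

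Markers of other cells moved with some of these groups. The 6 of 6 markers of double-positive thymocytes rose in thymus against spleen, with a sum of 10222 to 22573 normalized reads in thymus, against 52.4 to 133 in spleen and 13.6 to 46.5 in liver_C, and all 6 rose against liver_C too. Rag2 and Arpp21 were at 0 in every spleen library, and Rag2 and Ptcra in every liver_C library. Rag1, the most abundant of them, had 7357, 14000.1 and 10481 in thymus, and Cd8b1 had 816, 2413 and 1701 there, while Dntt, next in abundance, had its lowest value in N0967 as well. Thymus N0967 had the lowest of the 3 thymus sums. Of the members called in the thymus comparisons, Abca1, Abcg1, Fasn, Lss and Stard4 were highest in N0967 among the thymus libraries. Scd2, Srebf2 and Cyp51 were lowest in it, and Fdft1 lay in the middle. The part of these markers in the thymus results was not tested. Of the 8 markers of the sorted cells, Tbx21 and Cxcr3 fell in thymus against spleen, where the gate used CD122 in place of CXCR3, and Tbx21, Zbtb16, Il2rb and Cxcr3 fell in thymus against liver_C. Il2rb, the gene of CD122, had 15562, 13305 and 13099.5 normalized reads in thymus, 29836, 25927 and 28206 in blood, 18581, 14743 and 15740.3 in spleen and 28888, 26050.3 and 27507 in liver_C. Its thymus and spleen libraries lay below all blood and liver_C libraries, as for Srebf2, Cyp51 and Stard4, and Il2rb fell in spleen against liver_C (log2 fold change -0.75 ± 0.16 SE, adjusted p = 0.0143) and rose in blood against spleen (log2 fold change 0.78 ± 0.16 SE, adjusted p = 0.012). The part of this in the results was not tested. Of 12 cell cycle genes, 10 rose in thymus against spleen, 6 rose in blood against spleen and 3 rose in thymus against liver_C, with sums of 4669 to 11539.8 in thymus, 6239 to 7927 in blood, 2470.0 to 3647 in spleen and 3302 to 5203 in liver_C. Every blood library lay above every spleen library in the cell cycle sum, as in the sterol enzyme sum, whereas thymus lay above spleen in the cell cycle sum and overlapped with it in the sterol enzyme sum. Their part in the results was not tested.

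In spleen against liver_C, 2 of the 7 B cell genes tested rose, and the sum over the 8 was 2026 to 2875 in spleen, against 1615 to 1784 in liver_C, most of it Ighm with 1897, 1683 and 1582 in spleen, against 1708, 1753 and 1598 in liver_C. The 9 markers of Kupffer cells and macrophages summed to 198 to 423 in spleen, where Clec4f and Vsig4 were at 0, against 53.7 to 103 in liver_C, where Marco was at 0. None of the 5 that passed the filter was called, and Lyz2, the most abundant, had 227, 211 and 164 in spleen, against 64.4, 76.5 and 45.2 in liver_C. Ms4a1 had 109, 72.8 and 73.8 in spleen, against 2.2, 0 and 0 in liver_C, and Igkc had 520.4, 296 and 283 in spleen, against 3.85, 8.27 and 2.56 in liver_C. Csf1r had 76.2, 13.6 and 5.9 in spleen, against 4.95, 12.4 and 1.7 in liver_C, and C1qa had 46.7, 22.2 and 12.8 in spleen, against 4.4, 5.17 and 0 in liver_C. The sums of the macrophage and of the B cell genes were thus higher in spleen, where Abca1 was higher too. Not every gene followed its sum, in that Ighm overlapped and Clec4f and Vsig4 were at 0 in spleen. Double-positive thymocyte genes summed to 154 to 2558 in blood, against 52.4 to 133 in spleen, without overlap. All 6 were fitted above 0 in blood against spleen, and 1, Arpp21, was called. Blood also held erythroid and platelet genes at sums of 129 to 1319.6, against 58.1 to 124 in spleen, most of it globin (Hbb-bs 83.5, 551 and 81.3, Hba-a1 43.2, 329 and 29.9 and Hbb-bt 35.5, 166 and 3.74 in blood). The part of these cells in the results was not tested.

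Several of the organ calls were lost when 1 library was left out, and calls over all genes fell too. In spleen against liver_C these fell from 174 to 80, 84 and 79 without liver_C N1383, spleen N1377 and spleen N1381. Whether a single library or the smaller group set these losses was not tested. In spleen against liver_C, Abca1 alone was called without liver_C N1383, spleen N1377 or spleen N1381. The call of Cyp51 in that comparison was lost without any 1 of liver_C N1379, liver_C N1383, spleen N1226, spleen N1377 and spleen N1381, where its adjusted p was 0.0502, 0.103, 0.0511, 0.0681 and 0.0503. The call of Srebf2 was lost without liver_C N1224, liver_C N1383, spleen N1377 or spleen N1381 (adjusted p 0.15, 0.114, 0.131 and 0.105). In blood against spleen, Cyp51 and Abca1 alone were called without spleen N1377, spleen N1381 or blood N0962, where the adjusted p of Srebf2 was 0.0653, 0.0699 and 0.0937. In thymus against liver_C, Srebf2, Scd2, Abca1 and Abcg1 were called without liver_C N1383, where the adjusted p of Cyp51 was 0.0891 and that of Stard4 0.0617. Without thymus N0967 the adjusted p of Cyp51 was 0.102, and without thymus N1376 that of Stard4 was 0.0694. Within ranges of library numbers the differences kept their direction, and in spleen against liver_C those of Cyp51 were -0.97 and -1.19, those of Srebf2 -0.97 and -0.87 and those of Abca1 1.21 and 1.16 on the log2 scale.

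The comparison of liver preparations addressed whether digestion in the warm changed these genes. In BL6, liver_H differed from liver_C in none of the 33 members by limma (1.05% of all genes tested were called), with 8 at an unadjusted p under 0.05, none called by edgeR and 1, Mylip, by DESeq2. In BALB/c, none was called by limma (background 0.628%), with 4 at an unadjusted p under 0.05, none called by edgeR and 1, Abca1, by DESeq2. The difference of the effect between the strains was called for none of the 33, with 1 at an unadjusted p under 0.05 and none called by edgeR or DESeq2, and for 0% of all genes. The median log2 fold change of the members was -0.03 in BL6 and 0.07 in BALB/c, beside 0.00 and 0.03 over all genes.

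Abca1 had the difference nearest to a call in BALB/c. In BL6, Abca1 had 703, 905 and 584 normalized reads in liver_H, against 571, 472 and 509 in liver_C (log2 fold change 0.48 ± 0.18 SE, adjusted p = 0.245), and in BALB/c Abca1 had 429, 311 and 505 in liver_H, against 215 and 262 in liver_C (log2 fold change 0.78 ± 0.20 SE, adjusted p = 0.0809). Liver_H was above liver_C without overlap in both strains, although neither difference passed the threshold. Mylip went the other way, with 1259, 1504 and 1291 in BL6 liver_H, against 2306, 1875 and 1818 in BL6 liver_C (log2 fold change -0.56 ± 0.15 SE, adjusted p = 0.0716). In BALB/c, Mylip had 1344, 1943 and 1508 in liver_H, against 2469.8 and 1864 in liver_C, with overlap (log2 fold change -0.44 ± 0.16 SE, adjusted p = 0.28). Thus, these 2 LXR targets were fitted in opposite directions in the same preparations. Tm7sf2, a sterol reductase gene with few reads, had 4.19, 12 and 16.3 in BL6 liver_H, against 39.6, 36.2 and 23.9 in BL6 liver_C (log2 fold change -1.67 ± 0.60 SE, adjusted p = 0.226), and shares 9356 bases and the strand with Vps51, so that its reads may be split with that gene. Insig2 had 107, 70.7 and 116 in BL6 liver_H, against 121, 175 and 154 in BL6 liver_C (log2 fold change -0.63 ± 0.27 SE, adjusted p = 0.346), and Nr1h2 had 991, 875 and 911 in BL6 liver_H, against 779, 656 and 808 in BL6 liver_C (log2 fold change 0.31 ± 0.12 SE, adjusted p = 0.27). Srebf2 overlapped between the preparations, with 1709, 1463 and 2157 in BL6 liver_H, against 2034, 1273 and 1785 in BL6 liver_C (log2 fold change 0.07 ± 0.20 SE, adjusted p = 0.937). None of the other sterol, fatty acid and LXR genes was called between the preparations either.

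The strains differed in few members. BL6 differed from BALB/c in 3 members in liver_H (6.1% of all genes tested were called) and in 2 in liver_C (background 3.52%), shares near or little above the background. Scd2 had 900.3, 747 and 829 normalized reads in BL6 liver_H, against 358, 447 and 304 in BALB/c liver_H (log2 fold change 1.17 ± 0.18 SE, adjusted p = 0.000215). In liver_C it had 983, 709 and 840.1 in BL6, against 264 and 459.9 in BALB/c (log2 fold change 1.26 ± 0.20 SE, adjusted p = 0.000407). All 6 BL6 liver libraries lay above all 5 of BALB/c, and Scd2 was higher in BL6 in both preparations. Abca1 was also higher in BL6, in liver_H (log2 fold change 0.82 ± 0.18 SE, adjusted p = 0.00554) and in liver_C (log2 fold change 1.12 ± 0.20 SE, adjusted p = 0.00105). In liver_H the difference of Abca1 was 1.12 among libraries of the lowest range of numbers and 0.21 in the next range, where each strain had 1 library, and without BL6 liver_H N0969 its adjusted p was 0.051.

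Nsdhl, a sterol dehydrogenase gene on the X chromosome (chromosome X, 72918557 to 72958514), went the other way. It had 67.1, 101 and 129 normalized reads in BL6 liver_H, against 154, 186 and 251 in BALB/c liver_H. The libraries did not overlap, and Nsdhl fell in BL6 (log2 fold change -1.01 ± 0.28 SE, adjusted p = 0.0323), a call that was lost without BL6 liver_H N0963 or N0969 or without BALB/c liver_H N0972 or N1229 (adjusted p 0.178, 0.0743, 0.07 and 0.11). In liver_C the difference was not called (log2 fold change -0.50 ± 0.31 SE, adjusted p = 0.589). Of the other pathway genes in liver_H, 1 of 12 sterol genes was higher and 1 lower in BL6 and 2 of 11 fatty acid genes were higher and 2 lower. In liver_C, 1 sterol gene and 2 fatty acid genes were higher and none was lower, and no further LXR gene was called in either. Acss2, which makes acetyl-CoA from acetate, had 277, 305 and 349 in BL6 liver_H, against 100.5, 106 and 78.3 in BALB/c liver_H (log2 fold change 1.70 ± 0.16 SE, adjusted p = 1.78e-07), and in liver_C it had 305, 323 and 292 in BL6, against 58.1 and 60.2 in BALB/c (log2 fold change 2.35 ± 0.18 SE, adjusted p = 9.42e-09). The lipid phosphatase gene Lpin1 had 463, 513 and 449 in BL6 liver_H, against 286, 235 and 195 in BALB/c liver_H (log2 fold change 1.00 ± 0.16 SE, adjusted p = 0.000353). Npc1, which releases cholesterol from lysosomes, had 933, 821 and 713 in BL6 liver_H, against 406, 408 and 300.2 in BALB/c liver_H (log2 fold change 1.15 ± 0.15 SE, adjusted p = 2.62e-05), and both genes were higher in BL6 liver_C as well (Lpin1 0.75 and Npc1 1.06 on the log2 scale). Reads of BALB/c were aligned to a genome of C57BL/6 origin, and the part of this in the strain differences was not tested.

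**Figure D4:**
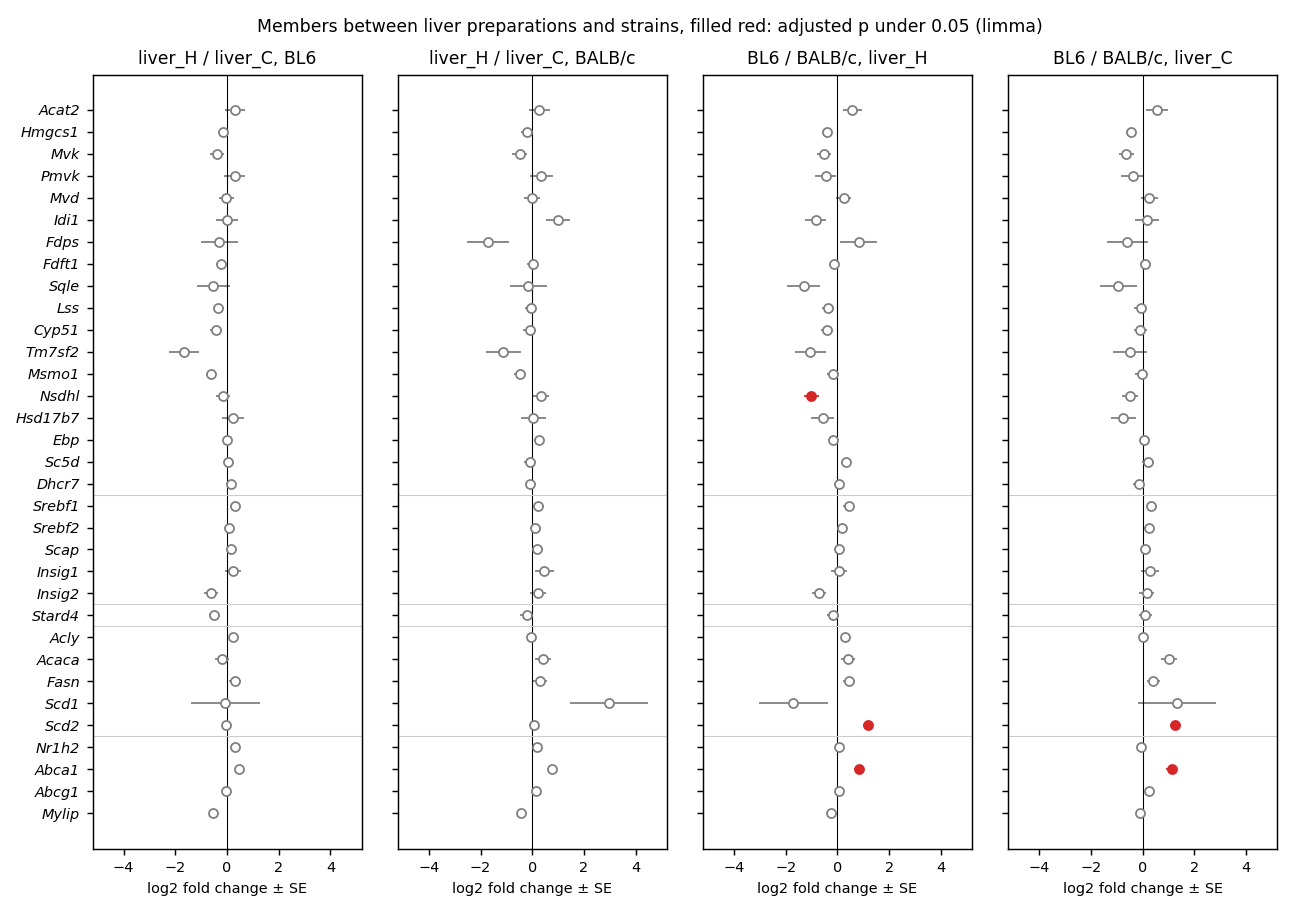
Log2 fold changes of the 33 members between liver preparations within a strain and between strains within a preparation, with standard errors, where filled red points were called at an adjusted p under 0.05. No point is filled for liver_H against liver_C, and Scd2 and Abca1 are filled to the right of 0 in both strain comparisons.

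A single BALB/c liver_H library, N0972, held hepatocyte genes at a sum of 1549.8 normalized reads, against 7.15 to 40.0 in BL6 liver_C. Alb had 108, 675 and 3.22, Apob 21.2, 279.6 and 1.07 and Fabp1 1.41, 223 and 5.36 in BALB/c liver_H. Scd1, a gene that hepatocytes express strongly, had 39.6, 123 and 0 in BALB/c liver_H, with its highest value in N0972. Without N0972, Mylip was called between liver_H and liver_C in BL6 and Abca1 in BALB/c, and Mylip was also called without BALB/c liver_C N0970 or N1227. Ighm and Klrb1c, the gene of the NK1.1 antigen, were higher in BL6 in both preparations. The sums over double-positive thymocyte genes were 0 to 2308 in BALB/c liver_H, 25.5 to 683 in BL6 liver_H and 11.4 to 413 in BALB/c liver_C. The part of these markers in the liver results was not tested.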

How the data were processed

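Cells were sorted from 20 samples and total RNA was sequenced with a stranded low-input kit as single reads of 75 bases. Per the labels and the study's methods, the authors trimmed reads with Trim Galore 0.4.4, aligned them with STAR to the mouse genome (GRCm38 p6), counted reads per gene with featureCounts on a GENCODE annotation and divided the counts by DESeq2 size factors. The strand setting of the counting is not given in the sources used here. The deposited signal is this normalized read count, given by the authors for each library, and their mean over libraries and the gene length were deposited beside it. Multiplied by a size factor recovered from the steps of low values, at least 99.993% of the values in each library lay within 0.05 of a whole read. The table also holds the authors' fold changes and p-values for thymus against all other libraries, which were not used, and 1 line that names no gene, which was left out.

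Groups were taken from the labels. Of 53714 genes, 14170 were kept, those whose value reached 10 in 3 libraries or more. One model with 7 group means was fitted with limma 3.58.1 (trend) on log2(value + 1) in R 4.3.3, p-values were Benjamini-Hochberg adjusted over all genes kept, and fold changes of low genes are understated by the pseudocount. SE is that of the fit. The procedure was tested on simulated counts. Alternatives were pseudocounts of 0.5 and 10, no filter, only genes over 300 in a library, quantile normalization, ranges of library numbers as a block, only the groups compared in the fit, edgeR 4.0.16 and DESeq2 1.42.0 on whole reads, and each library left out. Members and lists were chosen with earlier results of these data known. By rule, called members (up to 8 per comparison, by adjusted p), up to 3 called genes of the other pathway lists per comparison and the 3 most abundant genes of each marker list are named, and Lpcat3 and uncalled members were added after their values were seen. Some genes of the other sterol list are not reported here. Promoter windows are RefSeq sequences of GRCm38.p6, and motifs were searched on both strands. Reads without molecular identifiers are not independent molecules, so depth limits only counting error.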

Additional observations from a re-analysis of the deposited data

How the results depend on the processing

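No called member changed its direction under any of the alternatives. Of the members described as called, Scd2 and Abcg1 in both thymus comparisons, Abca1 in each organ comparison where it was called, Cyp51 in blood against spleen, Srebf2 in thymus against liver_C, Scd2 between strains in liver_H and Abca1 between strains in liver_C were called under each alternative. With the ranges of library numbers as a block, 6 members were called in spleen against liver_C in place of 3, 8 in blood against spleen in place of 4, and 1 in BALB/c liver_H against liver_C in place of 0. The calls over all 14170 genes rose too, to 284 from 174, to 1002 from 258 and to 201 from 89 in these comparisons. When each fit held just its own groups, the counts were 6 in spleen against liver_C, 7 in blood against spleen, 1 in BL6 against BALB/c in liver_H (Scd2, in place of 3) and 1 in liver_C (Abca1, in place of 2). Over all genes, these fits called 273 of 12252, 662 of 12341, 363 of 12393 and 181 of 11928, in place of 174, 258, 864 and 499 of 14170. DESeq2 called 5 in spleen against liver_C, 1 in liver_H against liver_C in BL6 (Mylip) and 1 in BALB/c (Abca1), and quantile normalization called 1 in BL6 (Mylip). Over all genes, DESeq2 called 323, 316 and 204 in these comparisons, where limma called 174, 149 and 89. Quantile normalization called 149 in liver_H against liver_C of BL6. Leaving out each library gave 0 to 1 calls for liver_H against liver_C in either strain, 1 to 4 between strains in liver_H, 2 to 4 in liver_C, 1 to 4 in spleen against liver_C, 2 to 5 in blood against spleen, 3 to 5 in thymus against spleen, 4 to 9 in thymus against liver_C and 12 to 17 over the 7 groups. The calls over all genes moved with the library left out as well. They were 79 to 227 in spleen against liver_C and 83 to 400 in blood against spleen. In thymus they were 924 to 1563 against spleen and 794 to 1366 against liver_C. The cause of these shifts was not tested. The strain difference of the liver effect and blood against liver_C had 0 calls under each alternative run. No paired analysis was made, because the labels do not say which libraries share mice. A pairing, such as that of divided livers, was thus not taken into account. With 2 or 3 libraries a group, the members with few reads (Scd1, Fdps, Sqle and Tm7sf2) had the widest standard errors in spleen against liver_C, and whether depth sets this was not tested.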
